A study of Mus musculus with 3 samples.

Results

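Plasma cells in the mouse pancreas were described in 3 droplet single-cell RNA-seq libraries of live CD45+ cells, 1 library from mice given PBS and 1 each from mice given WGP 3 or 7 days before the tissue was taken. WGP is a particulate, largely hollow yeast β-glucan, and the study gave it as a single intraperitoneal dose to ask how immune cells in the pancreas respond. Per the study's methods the mice were male and female, 6 to 8 weeks old, and the wild-type strain was C57BL/6J, and no group carried an allele or agent besides PBS or WGP. How many mice went into each library was not given in the sources used here, and Xist and Y-linked transcripts were both found in every library. Members were selected on measured values, namely the UMIs of marker and immunoglobulin genes. A member was a barcode with at least 1000 unique molecular identifiers (UMIs) and at most 30% mitochondrial UMIs that had a UMI of at least 3 of Sdc1, Prdm1, Tnfrsf17, Derl3 and Mzb1, and at least 5% of its UMIs from Ighm, Igha, Ighg1, Ighg2b, Ighg2c, Igkc and Jchain. This rule found 893 members among 14302 barcodes, 248 of 5249 in the PBS library, 567 of 4879 in the 3-day WGP library and 78 of 4174 in the 7-day WGP library.

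Plasma cells are the antibody-secreting end stage of the B cell lineage. They shut down much of the B cell programme under the repressor Blimp-1 (Prdm1), enlarge the endoplasmic reticulum (ER) under the transcription factor Xbp1, and devote a large part of their transcripts to the 2 chains of a single antibody. Plasma cells that secrete IgM can arise from B-1 cells, a B cell lineage of the body cavities whose antibodies often use recurring pairs of variable (V) genes.

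The markers that chose the members were, as a consequence of the rule, found in nearly all of them. Jchain joins the subunits of polymeric IgM and IgA, and its UMIs counted towards the immunoglobulin limit of the rule. It had a UMI in 248 of 248, 567 of 567 and 78 of 78 members of the PBS, 3-day and 7-day libraries. Sdc1, the plasma cell surface proteoglycan CD138, had a UMI in 90.3%, 92.4% and 92.3%, and Derl3, a factor of ER-associated degradation, in 96.0%, 97.4% and 98.7%. CD45 (Ptprc), on which the cells were sorted, had a UMI in 90.3%, 88.0% and 94.9%. Around the marker threshold, with at least 5% immunoglobulin, 5, 22 and 0 barcodes had 2 of the 5 markers and 26, 46 and 5 had exactly 3. A further 3, 38 and 2 had 1 marker and 2, 21 and 1 had none. With at least 3 markers, 1, 2 and 2 barcodes had 3 to 5% immunoglobulin and 7, 7 and 0 had 5 to 10%.

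The libraries held 48219246 to 56849043 UMIs, and with 1 library per group no test between groups was possible. Intervals given below are 95% and cover counting error only, not the spread between mice. Members were deep, with a median of 29664.5, 26075 and 41999.5 UMIs in the PBS, 3-day and 7-day libraries, against 3705.5, 3808 and 4437 UMIs in B barcodes. B barcodes here were barcodes with a UMI of at least 2 of 4 B cell genes, Ms4a1, Fcmr and Cd22 among them, and none of Sdc1, Tnfrsf17, Derl3, Prdm1, Cd3e or Lyz2. Without immunoglobulin the medians of the members were 14123, 14175 and 14934.5 UMIs. The libraries shared 9, 1 and 5 kept barcode sequences pairwise, and no barcode was a member in 2 libraries.

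Markers of other cell types were present in part of the members. At least 2 of the 3 T cell genes Cd3e, Cd3d and Cd3g had a UMI in 89, 176 and 9 members of the PBS, 3-day and 7-day libraries, and at least 2 of the 4 myeloid genes Lyz2, Csf1r, C1qa and S100a8 in 27, 32 and 6. The T-marked members were 35.9%, 31.0% and 11.5% of members. When barcodes with Cd3e were not left out, 12.7%, 10.6% and 4.19% of the shallower B barcodes were T-marked in the same way. In the T-marked members the summed UMIs of a T cell list had a median of 22, 25 and 59, while free RNA in the suspension would have given 0.239, 0.803 and 0.488. The markers did not spread evenly over the sexes. In the PBS library 82 of 147 members with Y-linked UMIs only (55.8%) were T-marked against 3 of 84 members with Xist UMIs only (3.57%), whereas myeloid markers stood in 5 of 147 (3.40%) and 22 of 84 (26.2%). Among myeloid-marked barcodes of the PBS library that were not members, 97.8% of those with 1 kind of sex-linked UMI had Xist. Counted in the same way, 81.5% of the myeloid-marked members of that library had Xist. For T cells the same count gave 35.1% (113 of 322) in T barcodes and 3.53% in T-marked members. The T barcode value depended on depth, since 208 of the 530 T barcodes of that library had no sex-linked UMI. Among the 153 deepest of them, 96 had Xist UMIs only and 36 Y-linked UMIs only, which gave 72.7%. T barcodes here were barcodes with at least 2 of the CD3 genes and no Ms4a1, Cd79a or Lyz2. Doublets were not removed by a caller, the part of joined cells in these markers was not tested, and results are therefore also given for the 137, 371 and 65 members without T or myeloid markers, a set chosen after seeing the data.

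**Figure D1:**
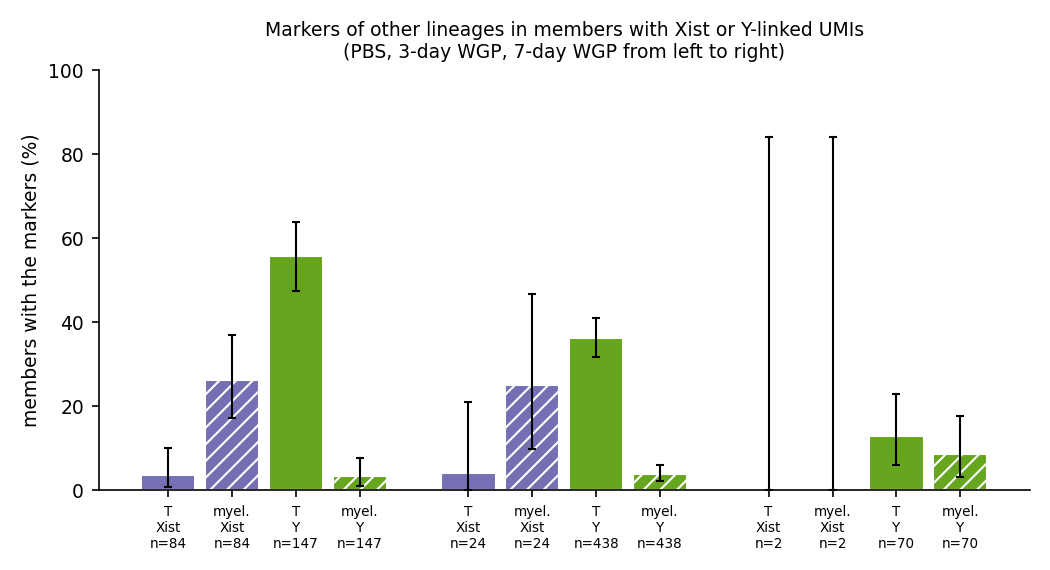
Share of members (y axis, %) with T cell markers (plain bars) or myeloid markers (hatched bars), split by members with Xist UMIs only and with Y-linked UMIs only, in the PBS, 3-day and 7-day libraries from left to right. Bars are shares and whiskers are exact 95% binomial intervals; T markers reached 55.8% of Y members and 3.57% of Xist members in the PBS library.

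Plasma cells made up the largest share of CD45+ barcodes 3 days after WGP and the smallest after 7 days. The share was 4.72% (4.17 to 5.33) in the PBS library, 11.6% (10.7 to 12.6) in the 3-day library and 1.87% (1.48 to 2.33) in the 7-day library. The log2 ratio to PBS was 1.30 (1.08 to 1.52) after 3 days and -1.34 (-1.72 to -0.97) after 7 days. Members without T or myeloid markers gave 2.61%, 7.60% and 1.56%, with log2 ratios of 1.54 (1.26 to 1.84) and -0.75 (-1.19 to -0.31). B barcodes did not follow the same course and took 28.7%, 11.7% and 8.17% of kept barcodes. A share also moves with how many other CD45+ cells entered the pancreas, and cell numbers per organ are not in these files.

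The 3-day excess was seen among barcodes with Y-linked UMIs and was not resolved among those with Xist. Among Y barcodes members were 8.47% (147 of 1736), 17.5% (438 of 2510) and 3.75% (70 of 1865) of the PBS, 3-day and 7-day libraries. Among Xist barcodes they were 4.12% (84 of 2039), 5.01% (24 of 479) and 0.166% (2 of 1208), and the 3-day log2 ratio of 0.28 (-0.44 to 0.95) spanned 0. Xist barcodes were 54.0%, 16.0% and 39.3% of the barcodes with 1 kind of sex-linked UMI, and 18.7%, 14.8% and 19.2% among B barcodes. Neither kind was found in 1470 of 5249, 1835 of 4879 and 1028 of 4174 kept barcodes, but in 16 of 248, 94 of 567 and 6 of 78 of the deeper members. Shares within Y or Xist barcodes thus leave out more non-members than members, to an extent that differs by library. Treatment and mice cannot be told apart in this design. Among Y barcodes and without T or myeloid markers, the members were 3.69%, 10.7% and 3.06%, and the 7-day log2 ratio of -0.27 (-0.81 to 0.27) spanned 0.

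**Figure D2:**
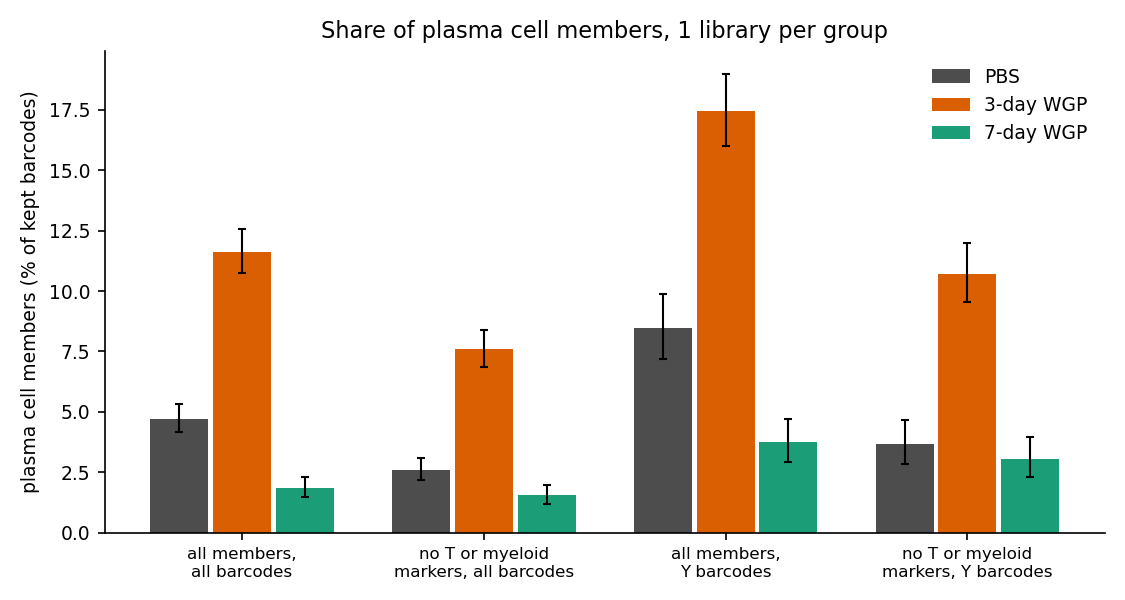
Members as a percentage of kept barcodes (y axis) in the PBS, 3-day WGP and 7-day WGP libraries, for all members and for members without T or myeloid markers, over all barcodes and over barcodes with Y-linked UMIs only. Bars are shares of 1 library each and whiskers are exact 95% binomial intervals; the 3-day bar is the highest in all 4 sets.

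Immunoglobulin took the largest part of a member's RNA in the 7-day library. The 7 immunoglobulin genes of the rule took a median of 49.2%, 43.5% and 61.7% of a member's UMIs in the PBS, 3-day and 7-day libraries, with quartiles of 29.1 to 63.2%, 34.0 to 53.5% and 51.5 to 70.6%. This quantity was part of the rule and is given as a description. Without T or myeloid markers the medians were 58.6%, 47.4% and 65.3%, so the order of the libraries was kept.

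IgM was the most frequent isotype over the members of each library. A member was assigned to the heavy-chain constant gene that held at least 80% of its heavy-chain constant UMIs, with at least 10 UMIs. Ighm, the constant gene of IgM, led in 216 of 248 members of the PBS library (87.1%, 82.28 to 91.004), 555 of 567 of the 3-day library (97.9%, 96.3 to 98.9) and 71 of 78 of the 7-day library (91.03%, 82.4 to 96.3). Among members with Xist UMIs only, Ighm led in 77 of 84, 18 of 24 (75%, 53.3 to 90.2) and 0 of 2, and IgG genes in 5 of the 24 of the 3-day library. Over all members an IgG gene led in 18, 8 and 3 and Igha, the constant gene of IgA, in 6, 3 and 4. Ighd and Ighe led in none, which allows a share of up to 1.21%, 0.529% and 3.85%. Over all UMIs of the members Ighm stood at 101499, 110982 and 139398 counts per 1000000, against 336, 489 and 271 in T barcodes. T barcodes had at least 2 of the CD3 genes and no Ms4a1, Cd79a or Lyz2. Levels of rarer isotypes rested on single barcodes, and 1 barcode held 70.1% of the Ighg2b UMIs of the PBS library. Lambda constant genes exceeded Igkc, the kappa constant gene, in 5, 9 and 6 members.

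Among the V genes, 1 heavy chain recurred in every library. The V segment is the part of an antibody chain that makes most of the antigen contact, and a clone keeps its V genes when it divides. Reads of this 3′ kit reach V segments rarely, so members had a median of 9, 4 and 25 Ighv UMIs. A heavy-chain V gene could be assigned, by the same 10-UMI and 80% limits, in 105, 75 and 65 members. Ighv11-2 was assigned in 52 of 105 (49.5%, 39.6 to 59.5), 41 of 75 (54.7%, 42.7 to 66.2) and 27 of 65 (41.5%, 29.4 to 54.4), and all of these members were assigned to Ighm. No other heavy-chain V gene exceeded 6 members in the PBS library, 7 in the 3-day library or 8 in the 7-day library. Of the Ighv UMIs Ighv11-2 took 47.4%, 47.8% and 29.8% in members and 1.61%, 3.90% and 3.67% in B barcodes, although B barcodes held only 372, 77 and 109 Ighv UMIs in all. In free RNA its share was 52.3%, 61.02% and 43.0%.

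Ighv11-2 members carried the kappa V gene Igkv14-126. Pairings of Ighv11-2 with Igkv14-126 and of Ighv12-3 with Igkv4-91 are known from B-1 cells and from antibodies to phosphatidylcholine. Among members with at least 5 Igkv UMIs, Igkv14-126 took at least 50% of them in 51 of 52 Ighv11-2 members of the PBS library, 37 of 41 of the 3-day library and 27 of 27 of the 7-day library. In members assigned to a heavy-chain V gene other than Ighv11-2, Ighv12-3 and Ighv1-75 it took at most 5.41%, 11.1% and 0%. In the 3-day library it reached 38.5% in an Ighv12-3 member and 27.3% in an Ighv1-75 member, which overlaps the lowest Ighv11-2 members. The few Ighv12-3 members, 3, 4 and 8 in number, had a median of 95%, 77.8% and 67.7% of their Igkv UMIs from Igkv4-91. Over all members with a leading kappa V gene, Igkv14-126 led in 84 of 195 (43.1%, 36.0 to 50.3), 143 of 306 (46.7%, 41.0 to 52.5) and 30 of 56 (53.6%, 39.7 to 67.0). These counts leave out lambda V genes. Among all light-chain V genes, by the 10-UMI and 80% limits, Igkv14-126 was assigned in 55 of 91, 11 of 71 and 4 of 10 members and the lambda gene Iglv1 in 11, 46 and 3, including 3 of the 3-day Ighv11-2 members. Lambda constant genes exceeded Igkc in only 9 of 567 members of the 3-day library. Most of its 46 Iglv1 assignments therefore do not show the light chain that the member mainly transcribed. Iglv1 took 30.7%, 57.4% and 51.5% of the light-chain V UMIs of members and 32.2%, 59.3% and 59.3% of those of free RNA.

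**Figure D3:**
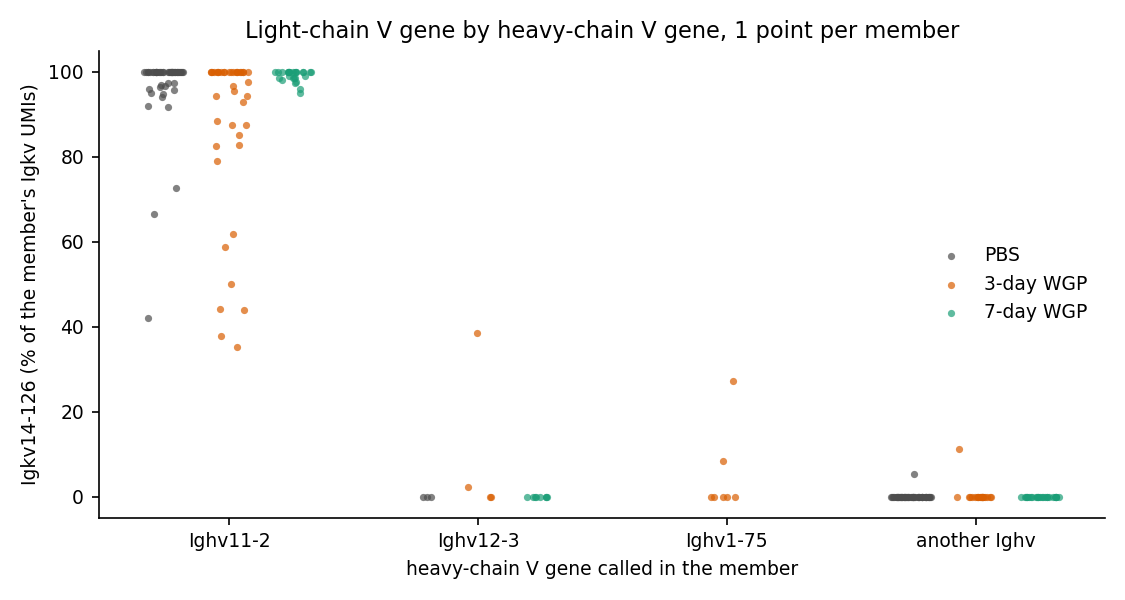
Percentage of a member's Igkv UMIs that came from Igkv14-126 (y axis) by the heavy-chain V gene assigned to the member (x axis), 1 point per member with at least 5 Igkv UMIs, coloured by library. Ighv11-2 members lie between 35.1% and 100%, and members with a V gene outside the 3 named ones lie at 11.1% or below.

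The 3-day library alone held members with Ighv1-75, a group chosen here after its values were seen. Ighv1-75 had no UMI in 248 PBS and 78 7-day members, which allows a share of up to 1.21% and 3.85%, and had 465 UMIs in 113 of 567 3-day members (19.9%). Of these 113 members 109 had a UMI of Igkv12-89 (96.5%, 91.2 to 99.0), against 22 of the 454 other 3-day members (4.85%, 3.06 to 7.24). Igkv12-89 had a UMI in 18 PBS members (7.26%) and 4 7-day members (5.13%). In the 7 members assigned to Ighv1-75, Igkv12-89 took a median of 90% of the Igkv UMIs, from 72.7% to 100%. Of the 113 members 112 were assigned to Ighm, 95 had Y-linked UMIs only, none had Xist UMIs only, and 67 were without T or myeloid markers. A UMI of Ighv1-75 was seen in 9 of 571 B barcodes and 1 of 794 T barcodes of that library, and it was 7.20% of the Ighv UMIs of free RNA there. In the PBS and 7-day libraries 3 and 1 B barcodes held a UMI of it.

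The germline V exons of both pairs are shown because their chains recur together. They are the last 300 bases of the exon, or the whole exon of 298 bases, in transcripts of GENCODE M21 on GRCm38, 5′ to 3′ on the coding strand, with capitals at bases that differ from the closest other V gene in the annotation. Ighv11-2 (chr12:114048241-114048540, minus strand) differs from Ighv11-1 at 4 of 300 bases, Igkv14-126 (chr6:67896345-67896642, plus strand) from Igkv14-111 at 27 of 298, Ighv1-75 (chr12:115833950-115834249, minus strand) from Ighv1-84 at 12 of 300, and Igkv12-89 (chr6:68834846-68835143, minus strand) from Igkv12-46 at 42 of 298. Ighv11-1 received only 1, 3 and 1 UMIs in members, but reads over the shared bases cannot tell the copies apart, and the rearranged sequences of the members were not read.
Ighv11-2: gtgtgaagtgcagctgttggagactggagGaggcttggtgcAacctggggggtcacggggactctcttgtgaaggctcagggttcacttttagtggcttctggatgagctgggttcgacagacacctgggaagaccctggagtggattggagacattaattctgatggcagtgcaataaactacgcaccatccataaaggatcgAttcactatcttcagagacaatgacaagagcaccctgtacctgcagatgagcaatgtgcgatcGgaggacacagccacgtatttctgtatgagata
Igkv14-126: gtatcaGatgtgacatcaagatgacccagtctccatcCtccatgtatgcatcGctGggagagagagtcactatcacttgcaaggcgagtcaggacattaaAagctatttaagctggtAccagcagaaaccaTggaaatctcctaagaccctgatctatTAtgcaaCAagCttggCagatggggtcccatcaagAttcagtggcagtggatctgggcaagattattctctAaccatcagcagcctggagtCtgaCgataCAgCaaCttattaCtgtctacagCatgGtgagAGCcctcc
Ighv1-75: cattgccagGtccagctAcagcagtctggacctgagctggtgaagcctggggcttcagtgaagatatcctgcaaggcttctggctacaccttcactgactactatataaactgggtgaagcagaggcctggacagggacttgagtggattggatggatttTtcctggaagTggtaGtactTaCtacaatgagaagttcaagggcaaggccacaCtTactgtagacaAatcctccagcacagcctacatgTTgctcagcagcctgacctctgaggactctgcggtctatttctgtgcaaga
Igkv12-89: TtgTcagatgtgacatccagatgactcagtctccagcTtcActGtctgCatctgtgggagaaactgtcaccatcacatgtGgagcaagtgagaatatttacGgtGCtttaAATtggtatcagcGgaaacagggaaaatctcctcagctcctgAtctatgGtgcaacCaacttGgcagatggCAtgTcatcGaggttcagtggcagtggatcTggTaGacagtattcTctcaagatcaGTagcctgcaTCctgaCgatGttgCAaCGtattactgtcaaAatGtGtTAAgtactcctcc

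Few genes separated Ighv11-2 members from other members in all 3 libraries. Of 2607 genes tested, with a gene called past 2-fold in the same direction in all 3 libraries, 0 (0%) were higher and 2 (0.0767%) lower than in members with another heavy-chain V gene. The 2 were Slpi and Isg15. Nkg7 (log2 1.99, 0.91 and 2.37) and the T cell gene Cd3g (1.54, 0.78 and 1.84) were higher in Ighv11-2 members and missed the limit only in the 3-day library. T markers were in 32.7%, 34.1% and 14.8% of Ighv11-2 members and in 17.0%, 26.5% and 7.89% of the others. Xist UMIs only were found in 38.5%, 7.32% and 0% against 60.4%, 32.4% and 5.26%. The part of these in the comparison was not tested. Slpi, a secreted inhibitor of neutrophil proteases, stood at 373, 154 and 1047 counts per 1000000 non-immunoglobulin UMIs (CPM) in Ighv11-2 members and at 1615, 1479 and 2829 CPM in the others, of which single barcodes held 28.5%, 47.5% and 24.8%. Isg15, an interferon-induced ubiquitin-like protein, stood at 17.3, 49.8 and 51.3 CPM against 49.3, 167 and 158 CPM. In the 7-day library 1 barcode held 79 of the 94 Isg15 UMIs of the others (84.0%). Without the barcode with the most UMIs in either group, an alternative chosen after seeing the data, the log2 ratios were -0.91, -1.40 and 0.27 for Isg15, which then turned direction in the 7-day library, and -1.86, -3.37 and -1.84 for Slpi.

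Against B barcodes of the same library, the members showed the secretory programme at far higher levels. Of 2588 genes tested, 286 (11.1%) were past 2-fold higher and 131 (5.06%) past 2-fold lower in all 3 libraries. Scaled to all UMIs instead, 106 were higher and 711 lower, and without T or myeloid markers 271 were lower. Members were picked for 5 genes that B barcodes were required to lack or that mark this state, so these are descriptions. Of the ER chaperones and folding enzymes 22 of 24 were higher, with median log2 ratios of 2.39, 2.67 and 2.86 against medians near 0 (0.01, -0.06 and -0.02) over all genes. ER-associated degradation had 8 of 10 higher, the translocon and signal peptidase, which move new chains into the ER, 17 of 20, N-glycosylation 10 of 11 and ER-to-Golgi transport 12 of 15. Of B cell identity genes 15 of 17 were lower, with medians of -1.45, -2.03 and -2.85, but 4 of the list had selected the B barcodes. MHC class II genes, which present antigen, were lower in 7 of 9. The 2 T cell genes tested were both higher, and their part in the other differences was not tested.

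Creld2, an ER stress-induced protein, stood at 680.5, 742 and 874 CPM, log2 4.31, 4.76 and 4.85 above B barcodes. Txndc5, an ER disulfide isomerase, was 4.32, 4.37 and 5.50 above B barcodes on the log2 scale. Outside the lists chosen after their values were seen, Eaf2, an elongation factor partner, Rgcc and Fam46c were among the highest, and Bank1, a B cell adaptor, Bcl11a and Cd72, a B cell coreceptor, among the lowest.

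Some of these secretory genes hold a known motif in their promoters. The ER stress response element, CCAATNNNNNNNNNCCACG, was searched on both strands from 250 bases before to 50 bases after each gene's start in RefSeq promoters of GRCm38.p6. It was present in 39 of 32851 promoters (0.119%) and in those of 7 of the 22 ER chaperone and folding genes with an entry (31.8%), namely Calr, Canx, Creld2, Dnajc3, Hsp90b1, Hspa5 and Pdia6. It was also present at Derl3, which belongs to the rule, and at Syvn1. The promoters of Derl3 (chr10:75893148-75893447, plus strand), Creld2 (chr15:88819396-88819695, plus strand) and Hspa5 (chr2:34771840-34772139, plus strand), the last an ER chaperone also called BiP, are shown with the motif in capitals. A match describes letters only, and binding was not measured.
Derl3 promoter: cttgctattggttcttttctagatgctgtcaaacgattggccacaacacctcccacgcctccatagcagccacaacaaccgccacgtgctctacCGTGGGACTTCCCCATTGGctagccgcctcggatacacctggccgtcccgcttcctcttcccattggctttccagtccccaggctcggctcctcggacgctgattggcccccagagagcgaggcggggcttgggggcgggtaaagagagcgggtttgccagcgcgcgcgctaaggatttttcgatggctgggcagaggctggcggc
Creld2 promoter: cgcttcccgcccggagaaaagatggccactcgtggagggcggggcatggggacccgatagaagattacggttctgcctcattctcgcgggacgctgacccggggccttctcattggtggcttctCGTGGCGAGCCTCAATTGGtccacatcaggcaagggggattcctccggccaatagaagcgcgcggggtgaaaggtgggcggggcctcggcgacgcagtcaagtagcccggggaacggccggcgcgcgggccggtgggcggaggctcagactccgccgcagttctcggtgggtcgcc
Hspa5 promoter: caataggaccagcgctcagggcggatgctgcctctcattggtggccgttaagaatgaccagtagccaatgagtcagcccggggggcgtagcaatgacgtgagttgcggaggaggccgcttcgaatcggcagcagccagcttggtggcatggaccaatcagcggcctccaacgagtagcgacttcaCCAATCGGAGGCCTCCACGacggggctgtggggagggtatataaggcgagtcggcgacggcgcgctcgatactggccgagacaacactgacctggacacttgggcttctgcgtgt

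**Figure D4:**
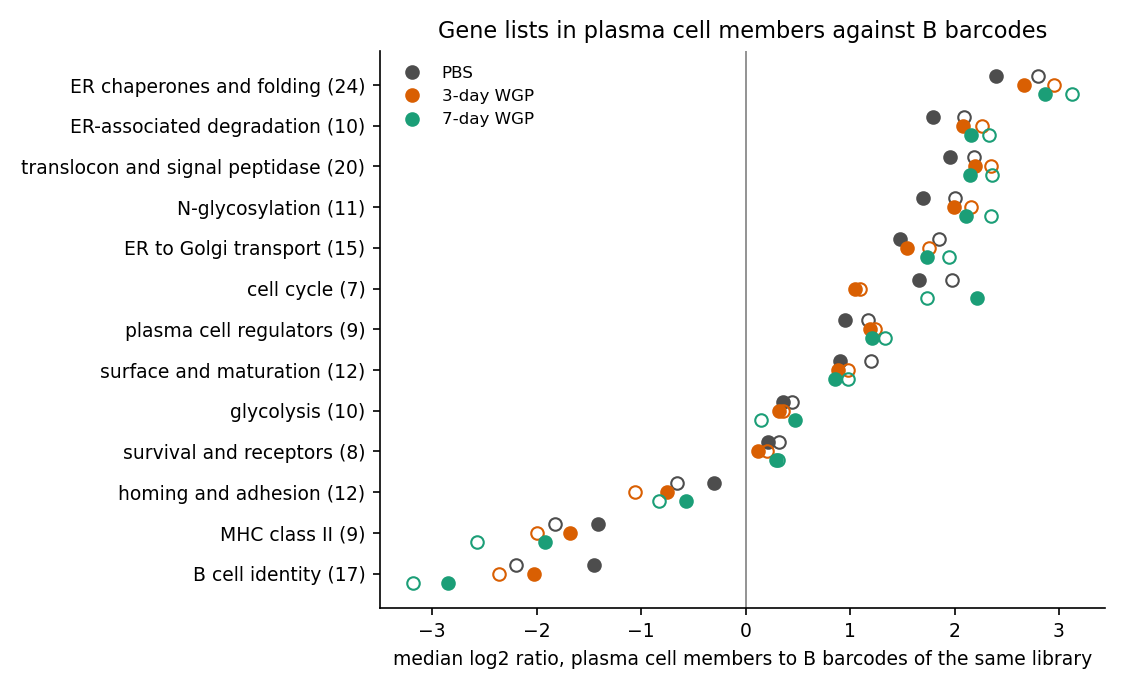
Median log2 ratio (x axis) of members to B barcodes of the same library for 13 gene lists, with the number of genes tested in brackets and 1 colour per library. Filled circles are all members and open circles are members without T or myeloid markers; ER lists lie to the right of 0 and MHC class II and B cell identity lists to the left.

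Between libraries the members' transcripts without immunoglobulin were compared, and more genes were past 2-fold after 7 days. A log2 ratio here is of CPM with 10 added, and a gene was called when past 2-fold, without a test. Of 2575 genes, 6 (0.233%) were higher and 14 (0.544%) lower in the 3-day library than in PBS, and 41 (1.59%) were higher and 29 (1.13%) lower in the 7-day library. The 7-day counts were 12 higher and 93 lower when scaled to all UMIs, and 86 and 54 in Y barcodes. The 3-day counts were 20 and 34 in Y barcodes. Without T or myeloid markers the shares were 0.35%, 0.699%, 1.55% and 1.32%. These shares over all genes are the background for the counts of called genes in the lists below. Over all genes the medians were -0.02 and 0.00.

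In the list of plasma cell regulators none of 9 genes was called after 3 days and 2 of 9 after 7 days, both higher. These were Xbp1 and Zbp1. Without T or myeloid markers 1 of 9 was called after 7 days, and it was not Xbp1. Xbp1, the driver of the secretory programme, stood at 1634, 1949 and 3591 CPM in the PBS, 3-day and 7-day libraries, log2 ratios of 0.25 and 1.13, and 0.79 after 7 days without T or myeloid markers. Thinned to 500 non-immunoglobulin UMIs, 53.2%, 61.2% and 78.2% of members had a UMI of Xbp1, against 2.64%, 3.78% and 3.07% of T barcodes. Zbp1, a sensor of nucleic acids, stood at 112, 134 and 393 CPM (0.23 and 1.72). Irf4, the transcription factor that commits B cells to this fate, differed little, at 181, 176 and 200.4 CPM.

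ER chaperones had medians of 0.23 and 0.29, with 0 and 1 of 25 genes called. The exception was Ero1lb, an oxidase that restores disulfide isomerases, at 152, 178 and 331 CPM (0.21 and 1.07). Txndc5 stood at 2343, 3069 and 4224 CPM (0.39 and 0.85) and Fkbp11, an ER prolyl isomerase, at 373, 711 and 473 CPM (0.91 and 0.33). Of the translocon and signal peptidase 1 of 20 was called after 7 days, or none without T or myeloid markers. This was Ssr4, a translocon-associated subunit, at 2255, 3157 and 4868 CPM (0.48 and 1.11). ER-associated degradation, N-glycosylation and ER-to-Golgi transport had no gene called at either time. Scaled to all UMIs instead, the 7-day median of all genes moved by -0.42 to -0.41 and the ER chaperone median became -0.19, still above it. Slc3a2, the shared subunit of amino acid transporters, stood at 862, 659.7 and 2189 CPM (-0.38 and 1.34).

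B cell identity genes were lower in the 7-day members. The median was -0.23 after 3 days, with 1 of 10 called lower, and -0.97 after 7 days, with 5 of 10 called lower and 8 of 10 below 0. Ms4a1, the B cell surface protein CD20, stood at 450.2, 287 and 126.3 CPM (-0.63 and -1.76). Ebf1, a B cell transcription factor, stood at 263, 106 and 71.9 CPM (-1.23 and -1.74), and Cd37 at 464, 317 and 172 CPM. Without T or myeloid markers the median was -0.08 and -0.56, with 3 of 10 called after 7 days and Ebf1 at -0.44 and -0.79. B markers, a UMI of at least 2 of the 4 genes, were in 62.1%, 71.3% and 38.5% of members, and their part in these differences was not tested.

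Genes of other kinds were called higher after 7 days. Bcl2l11, the pro-apoptotic protein Bim, stood at 71.4, 120.2 and 331 CPM (0.68 and 2.06), with a UMI in 49.2%, 61.4% and 73.1% of members. It had a UMI in 20.2%, 16.1% and 43.0% of T barcodes and 12.9%, 9.28% and 19.4% of B barcodes. Cldn7, a claudin that binds EpCAM, had a UMI in 21 of 248, 42 of 567 and 36 of 78 members, log2 -0.10 and 3.20, and in 0, 1 and 0 T barcodes. Epcam, an adhesion protein of epithelia, had a UMI in 52.8%, 61.6% and 78.2% of members and was 1.85 higher on the log2 scale after 7 days. In B barcodes it had a UMI in 8.22%, 5.60% and 6.74%. The shares with a UMI in this paragraph were not thinned to a common depth, and B and T barcodes were shallower than members. Sbno2, a transcriptional coregulator, had a log2 ratio of 2.93 and Serpina3f, a protease inhibitor, of 2.16. Both were also highest after 7 days in B barcodes, Sbno2 at 49.6, 50.6 and 92.5 CPM and Serpina3f at 7.59, 10.3 and 37.9 CPM. In T barcodes Sbno2 had a UMI in 11.5%, 12.6% and 27.4%. Slpi stood at 709.6, 318 and 2333 CPM (-1.14 and 1.70). Interferon-stimulated genes did not move together, since Ifitm3 (2.25) and Isg15 (1.52) were called higher and Ifi27l2a (-1.09) lower among 6 tested, and single barcodes held 34.7% and 40.1% of the 7-day UMIs of Ifitm3 and Isg15. Il1b (3.50) and Ifitm2 (3.03) were also among the highest, at 1.72 and 2.86 without T or myeloid markers, and 1 barcode held 45.2% of the 7-day UMIs of Ifitm2 and 37.0% of those of Il1b.

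Heat shock genes were lower in the 3-day members. Of 17 immediate early and heat shock genes 15 were below 0 after 3 days, with a median of -0.49, and 2 were called lower. Hspa1a, the inducible chaperone Hsp70, stood at 759, 115 and 939 CPM (-2.62 and 0.30) and Hspa1b, its near-identical copy whose reads cannot be cleanly separated from it, at 633, 108 and 622 CPM (-2.45 and -0.03). Other chaperones outside the list were lower as well, namely Hsph1 (-1.57), Dnajb1 (-1.48) and Dnaja1 (-1.26). The pattern was not particular to the members. Thinned to 500 UMIs, Hspa1a had a UMI in 23.8%, 4.06% and 23.1% of members, 31.8%, 4.91% and 17.6% of B barcodes and 20.2%, 5.42% and 15.6% of T barcodes. Prg2, eosinophil major basic protein, was lower at both times, at 290, 95.3 and 132 CPM (-1.51 and -1.07). Lgals3 (1.64), Il1b (1.13), Ckb (1.13), H1f0 (1.12) and Cst3 (1.02) were the highest after 3 days outside the gene lists. Il1b stood at 0.91 without T or myeloid markers and at -0.0017 after free RNA was subtracted. That subtraction may take away too much. Its estimate gave a median of 11.1 UMIs of a myeloid list in 3-day members, where the median found was 0. Cst3 and Ckb turned negative when members with at least 2 UMIs of other lineages were left out. Without T or myeloid markers Cst3 stood at 0.27, Ckb at 0.38 and H1f0, a linker histone, at 1.11.

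**Figure D5:**
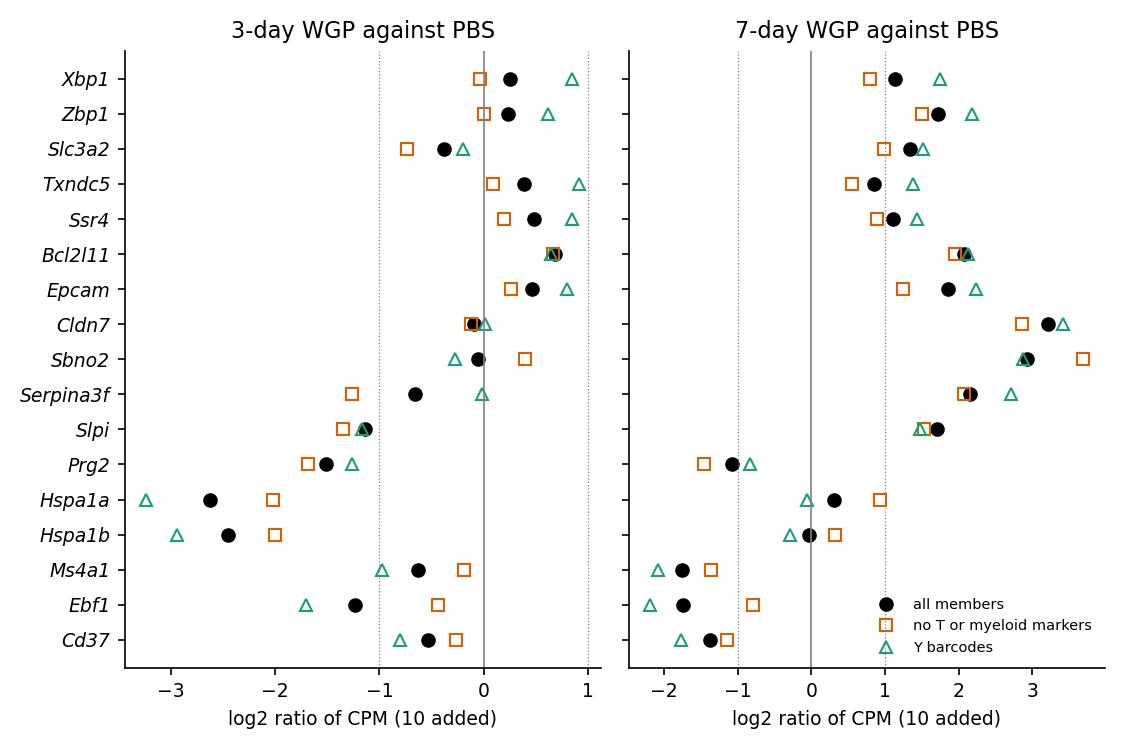
Log2 ratio of CPM with 10 added to PBS (x axis) for 17 genes discussed here, in the 3-day library (left) and the 7-day library (right), for all members (filled circles), members without T or myeloid markers (squares) and members with Y-linked UMIs only (triangles). Dotted lines mark 2-fold; Hspa1a and Hspa1b lie past it below 0 at 3 days and Cldn7 and Sbno2 past it above 0 at 7 days in all 3 sets.

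Part of the members carried transcripts of several cell cycle genes. At least 3 of 6 cycle genes had a UMI in 30 of 248 members of the PBS library (12.1%, 8.31 to 16.8), 149 of 567 of the 3-day library (26.3%, 22.7 to 30.1) and 5 of 78 of the 7-day library (6.41%, 2.11 to 14.3), against 0.464%, 1.93% and 0.293% of the shallower B barcodes. Thinned to 500 UMIs, Mki67, a marker of cycling cells, had a UMI in 7.26%, 7.41% and 5.13% of members and 0.332%, 0.526% and 0.587% of B barcodes, so the libraries were not separated at that depth. In CPM Mki67 stood at 212, 245 and 272, and 1 barcode held 27.9% of the 7-day UMIs. The list median was 0.16 and -0.36, with 2 of 12 genes called lower after 7 days, Stmn1 (-1.17) and Rrm2 (-1.04), and -0.85 without T or myeloid markers, where 4 of 12 were called lower.

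Of 8 survival genes and receptors only Bcl2l11 was called. Mcl1, the anti-apoptotic factor that plasma cells depend on, stood at 663, 728 and 1233 CPM (0.13 and 0.88). Of 11 homing genes tested 1 was called lower after 3 days and 2 after 7 days, or none and 1 without T or myeloid markers. Over all genes 0.544% and 1.13% were called lower, or 0.699% and 1.32% without T or myeloid markers. The shares called higher over all genes were 0.233% and 1.59%. Ccr7, a receptor that guides cells to lymph nodes, was among them after 3 days (-1.05) and after 7 days (-1.20), but stood at -0.32 and -0.03 without T or myeloid markers. Cxcr4, the receptor that holds plasma cells in bone marrow, stood at 114, 64.8 and 104 CPM (-0.73 and -0.12). Glycolysis had no gene of 10 called at either time, with medians of 0.09 and 0.07. Of 4 cytokines tested 1 was called higher after 3 days, and 1 higher and 1 lower after 7 days. Without T or myeloid markers 2 of 4 were called higher after 7 days, with a median of 1.29. Ccl4, a chemokine, stood at 31.4, 92.4 and 87.7 CPM (1.31 and 1.24), at 2.01 and 2.21 without T or myeloid markers, but at -0.14 and -0.59 without members with 2 or more UMIs of other lineages. Il10 stood at 42.3, 68.0 and 84.0 CPM (0.58 and 0.85), and Ltb, lymphotoxin beta, at 326, 178 and 123 CPM (-0.84 and -1.34). MHC class II genes had medians of -0.05 and -0.19, with 0 and 2 of 8 called lower. Ly6k, a surface protein of the Ly6 family, was 1.80 higher after 7 days, but 1 barcode held 47.0% of its UMIs.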

How the data were processed

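Single-cell suspensions of sorted live CD45+ pancreas cells were captured with the 10x Genomics 3′ kit, and per the labels the authors made raw UMI counts per gene and barcode with Cell Ranger 3.1.0 on mm10 and then used Seurat. The deposited counts are unfiltered matrices of 31053 genes, with no cell calls, and these counts were used here without the authors' later normalization. The members and gene lists were chosen with earlier results of these data known.

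UMIs of a gene were summed over the members of a library and given per 1000000 non-immunoglobulin UMIs (CPM); log2 ratios were taken with 10 CPM added for genes with a mean of at least 50 CPM. Genes named were the markers, constant genes, up to 4 genes of each list with the largest log2 ratios, and the 8 highest and 8 lowest outside the lists; further genes were chosen after their values were seen. With 1 library per group no p-value was computed. Free RNA was read from barcodes of at most 100 UMIs. Intervals were exact binomial or Poisson intervals at 95%, and a count of 0 was taken to allow 3 counts. UMIs correct for PCR copies, and intervals cover counting error only.

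Scripts used Python 3.11.15, NumPy 2.4.6, SciPy 1.17.1 and pandas 2.3.3, with normalization factors of edgeR 4.0.16 and DESeq2 1.42.0 as alternatives, and were tested on simulated data. Alternatives were other limits on UMIs, markers, immunoglobulin and mitochondrial UMIs, other scalings, the pseudocount and filter, a free RNA correction, sex-linked subsets and, chosen after seeing the data, the removal of T or myeloid marked members. Results of some genes are not reported here.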

Additional observations from a re-analysis of the deposited data

Results flagged for a closer look

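Below the depth limit of the members, the 3-day library held 116 barcodes of at least 500 and fewer than 1000 UMIs in which immunoglobulin took at least 5% of the UMIs. They stood out because these barcodes lie outside every comparison above. They were 48.5% (42.0 to 55.1) of 239 such barcodes, against 3 of 197 (1.52%) in the PBS library and 0 of 250 in the 7-day library, which allows up to 3 counts. Their median immunoglobulin share was 15.9%, and their median mitochondrial share was 0.813%, against 6.14% in the other barcodes of that depth and library. None of the 5 rule markers had a UMI in 46 of them, and 1 had 3.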

How the results depend on the processing

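With 1 library per group no replicate could be left out. No paired analysis was possible because each group holds 1 library and no test was run. The 3-day log2 ratio of the plasma cell share was 3.50 at most 10000 UMIs, 1.61 without members with 2 or more UMIs of other lineages, 1.54 without T or myeloid markers, 0.28 in Xist barcodes and 1.04 in Y barcodes. The 7-day ratio was 0.50 (-3.29 to 4.28) at most 10000 UMIs, where 2, 20 and 2 members remained, -0.75 without T or myeloid markers and -4.64 in Xist barcodes. For gene levels, the immunoglobulin share, isotypes and the comparison with B barcodes that limit was not run, because of these numbers. Without members with 2 or more UMIs of other lineages the median immunoglobulin share was 59.98%, 48.8% and 69.0%, and without T or myeloid markers 58.6% and 47.4% in the PBS and 3-day libraries. Ighm led in 99.3% of 3-day Y members and 75% of 3-day Xist members.

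Genes called at 3 days were 20 higher and 34 lower in Y barcodes, 10 higher with TMM or DESeq2 factors, 35 higher and 31 lower with no filter, and 23 lower without other lineages. At 7 days they were 86 higher and 54 lower in Y barcodes, 12 higher and 93 lower scaled to all UMIs, 100 higher and 107 lower with no filter, and 71 lower without other lineages. ER chaperone medians at 3 days were 0.079 without T or myeloid markers, 0.60 in Y barcodes, 0.31 scaled to all UMIs and 0.33 with TMM or DESeq2 factors, and at 7 days 0.66 in Y barcodes and -0.19 scaled to all UMIs. Immediate early and heat shock medians were -0.83 at 3 days without other lineages and -0.26 at 7 days scaled to all UMIs. Against B barcodes 106 genes were higher and 711 lower scaled to all UMIs, and 271 lower without T or myeloid markers. Without other lineages Lgals3 at 7 days became -0.032, Ckb at 3 days -0.61, Cst3 -0.15, Apoe 0.14 and Ccl4 -0.14, and Ccl4 at 7 days -0.59. Apoe at 3 days became 0.064 without T or myeloid markers, and Il1b at 3 days -0.0017 after free RNA was subtracted. Of the named genes 1244 results kept their side of 2-fold, and a change of direction below 2-fold was not counted. A further 44 kept direction but not the call and 30 gained the call. Isg15 in 7-day Ighv11-2 members against other members became 0.27 without the barcode with the most UMIs in either group. The causes were not tested.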
